A study of Drosophila melanogaster with 2 samples.

Results

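Of the 1314 merged Doc2-eGFP peaks of the series, 241 (18.3%) had their summit in intergenic sequence away from promoters. These peaks lay outside every protein-coding gene and more than 500 bp from every protein-coding transcription start site (TSS). They were taken from the union of the 4 thresholded peak lists on the X, 2L, 2R, 3L, 3R and 4 chromosome sequences, merged where they overlapped by 1 bp, and 1 peak between divergent start sites was dropped. The other merged peaks lay at promoters (558), in introns away from promoters (444) or in exons away from promoters (71). Among the merged peaks, the class was set by summit position alone. Signal entered before that step: the lists were thresholded, and each merged peak kept the summit of its row of highest signal. Chromatin immunoprecipitation and sequencing (ChIP-seq) had been carried out with an anti-GFP antibody on whole Drosophila melanogaster embryos aged 0 to 18 h. All embryos came from 1 transgenic strain, Doc2-GFP, which carries an insertion targeting Doc2 and makes a Doc2-eGFP fusion protein, and the only group held 2 biological replicates of it. The authors' peaks had been filtered by their irreproducible discovery rate (IDR), which measures how well peak ranks repeat between the peak sets compared. The 4 lists were that of the series, a conservative list that compares the replicates, and the own list of each replicate.

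The promoter of the transgene and the extent of the Doc2 locus in it are not stated in the labels. Because whole embryos of a wide age range were pooled, a peak signal cannot tell apart strong occupancy in few cells from weak occupancy in many. Read depth is unknown, since the lists hold no read counts, and the scale of the authors' peak signal is not stated.

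Doc2 is a Dorsocross protein, a T-box transcription factor known from the amnioserosa, the dorsal ectoderm and the heart of the fly embryo. T-box proteins bind short DNA sites through a conserved domain, and for many developmental regulators such sites lie in enhancers, stretches of DNA that act on a promoter from a distance. Intergenic sequence away from start sites also holds insulators, genes for long non-coding RNAs and transposable elements, so that a peak there is not by itself an enhancer.

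Sequences around some of these peaks are shown first, because later results turn on the hexamer ACAGTG. The Dorsocross and biniou sites are examples from the Dorsocross list and the list of heart and dorsal mesoderm genes. Other members near heart or amnioserosa genes are not printed. The printed sequences were picked in part for the hexamer, so its share among them says nothing of the members as a whole. Members without it near RYBP (series signal 461), sp3 (337) and slbo (280) are not printed, though stronger than the Cpr76Ba and CG7560 sites. Each runs from 100 bp before to 100 bp after the summit on the reference strand of dm6 (RefSeq Release 6), in lower case, with ACAGTG or its reverse complement CACTGT in capitals. The first 5 hold the hexamer and belong to members among the 11 of highest signal, the rest of which lack it. They lie at chr3R:16222385-16222585 (upstream of tara), chr2L:1632724-1632924 (upstream of chinmo), chrX:12752271-12752471 (beside CG4004), chr3L:19516624-19516824 (near Cpr76Ba) and chr3L:11418391-11418591 (upstream of CG7560). The next 2 have the highest signal without the hexamer among those printed, at chrX:12751312-12751512 (beside CG4004) and chr2L:1638708-1638908 (upstream of chinmo). The last 2 lie at chr3L:9025805-9026005, between Doc2 and Doc1, and chr3L:6989288-6989488, upstream of bin (biniou). The bin member had a series signal of 94.2 and was in the thresholded list of neither replicate.
tara: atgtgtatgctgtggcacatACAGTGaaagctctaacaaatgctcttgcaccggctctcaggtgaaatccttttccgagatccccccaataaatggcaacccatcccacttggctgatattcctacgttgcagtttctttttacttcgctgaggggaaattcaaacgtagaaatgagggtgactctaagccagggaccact
chinmo, distal: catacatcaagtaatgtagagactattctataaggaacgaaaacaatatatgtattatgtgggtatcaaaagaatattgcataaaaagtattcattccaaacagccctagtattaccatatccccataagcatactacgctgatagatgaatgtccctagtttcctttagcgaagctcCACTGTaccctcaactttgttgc
CG4004, second: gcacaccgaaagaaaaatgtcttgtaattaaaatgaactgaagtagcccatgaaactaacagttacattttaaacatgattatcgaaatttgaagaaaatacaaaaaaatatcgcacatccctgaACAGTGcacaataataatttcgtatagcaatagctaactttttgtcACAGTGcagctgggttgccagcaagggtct
Cpr76Ba: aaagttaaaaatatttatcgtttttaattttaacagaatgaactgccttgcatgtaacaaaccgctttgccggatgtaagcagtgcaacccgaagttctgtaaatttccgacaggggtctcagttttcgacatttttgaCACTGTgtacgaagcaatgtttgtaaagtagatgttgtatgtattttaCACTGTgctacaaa
CG7560: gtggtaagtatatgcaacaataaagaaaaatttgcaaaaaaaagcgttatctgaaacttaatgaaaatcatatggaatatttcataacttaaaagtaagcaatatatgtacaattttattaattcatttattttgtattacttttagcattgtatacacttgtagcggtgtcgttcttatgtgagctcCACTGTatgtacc
CG4004, first: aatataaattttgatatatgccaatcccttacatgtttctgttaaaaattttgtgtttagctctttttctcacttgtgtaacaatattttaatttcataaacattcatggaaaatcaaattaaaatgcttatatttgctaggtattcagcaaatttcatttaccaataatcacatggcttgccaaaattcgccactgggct
chinmo, central: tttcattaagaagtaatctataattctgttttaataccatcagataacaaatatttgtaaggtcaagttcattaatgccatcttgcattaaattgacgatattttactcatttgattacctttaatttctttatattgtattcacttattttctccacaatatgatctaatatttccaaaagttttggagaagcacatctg
Doc2: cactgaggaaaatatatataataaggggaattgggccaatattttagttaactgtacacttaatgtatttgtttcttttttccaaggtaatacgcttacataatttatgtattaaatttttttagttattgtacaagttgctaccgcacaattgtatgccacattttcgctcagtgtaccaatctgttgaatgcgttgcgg
bin: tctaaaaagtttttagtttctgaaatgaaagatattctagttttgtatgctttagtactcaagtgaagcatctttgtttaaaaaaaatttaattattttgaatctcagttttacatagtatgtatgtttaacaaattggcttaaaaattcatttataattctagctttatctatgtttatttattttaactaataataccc

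The hexamer occurs 2 times in the windows of Cpr76Ba and of the second CG4004 site, and 1 time in the other 3. None of the 9 windows holds the T-box site GGTGTGA on either strand. The windows differ in base composition, from a GC content of 21.4% at bin and 25.9% at the central chinmo site to 46.8% at tara.

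The strongest intergenic sites lay near genes of very different kinds. The site of highest signal in the series list lay beside CG4004 on X, at 12751244 to 12751548, within the gene of the long non-coding RNA lncRNA:Vinr. Its series signal was 546, with 288 in replicate 1 and 271 in replicate 2. The second lay 7622 bp from the TSS of RYBP, which encodes a Polycomb group protein, with a series signal of 461, and 260 and 186 in replicates 1 and 2. The third lay 3166 bp upstream of tara (taranis), a gene linked to the trithorax group, with a series signal of 439, and 235 and 193 in the replicates. All 3 stood in the thresholded lists of both replicates and were higher in replicate 1.

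Other members among the 20 of highest signal lay near developmental regulators and near genes of general cell function. A site 3391 bp upstream of foxo, a forkhead factor of insulin signalling, had a series signal of 255, with 144 in replicate 1 and 102 in replicate 2. A pair of sites 4529 and 6342 bp downstream of the TSS of slbo, the C/EBP factor of border cell migration, had series signals of 280 and 216. The sites near eEF1gamma, a subunit of a translation elongation factor, and CycB, which encodes Cyclin B, had series signals of 233 and 227. The site near Cpr76Ba, a gene of a cuticular protein, had a signal of 137 in replicate 1 and 139 in replicate 2, so the replicates were nearly equal there. Sites near CG4702, hll and CG31668 had series signals of 219, 211 and 195. The 20 members of highest series signal were all in the lists of both replicates and ranged from 195 to 546.

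Across all members the signal was lower and less repeatable than these sites show. The series list held 193 of the 241 members, with signals of 54.4 at the lowest, 94.1 at the median and 546 at the highest, against a median of 105 over the whole series list. The thresholded list of replicate 1 held 116 members and that of replicate 2 held 65. Both lists held 46 members (19.1%, against 29.4% of all merged peaks), and 106 members were in neither. Each replicate also had a ranked list that reaches below the threshold, where 226 members had a signal in both. In those lists 153 of the 226 were higher in replicate 1, with a median ratio of replicate 1 to replicate 2 of 1.18.

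**Figure D1:**
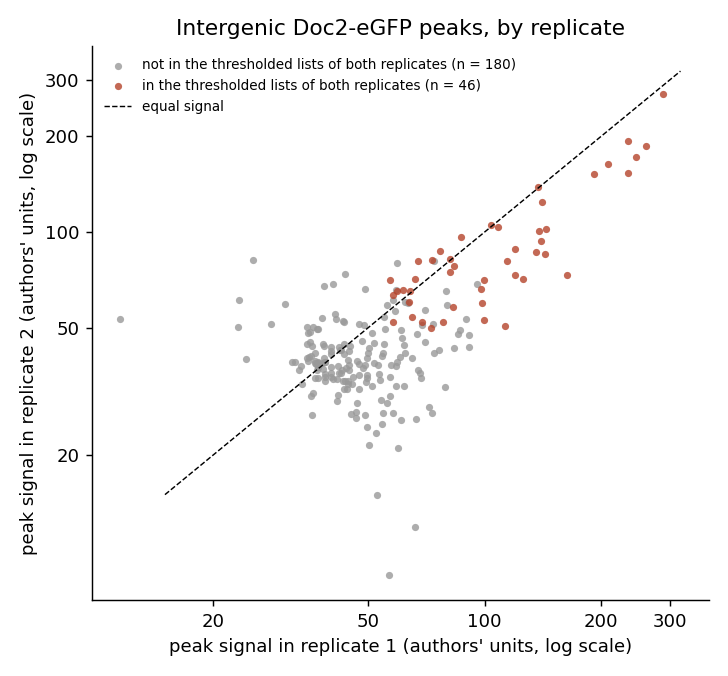
Peak signal of intergenic members in replicate 1 (x axis) and replicate 2 (y axis), both in the authors' units on log scales, for the 226 members with a peak in the ranked lists of both replicates. Red points are the 46 members in the thresholded lists of both replicates, grey points the other 180, and the dashed line marks equal signal; the red points reach 288 and 271 and most lie below the line.

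Presence in the lists of both replicates fell with signal. Each of these lists is itself a cut on ranked peaks, so presence in them is not independent of signal. When the 193 members of the series list were ranked by signal and cut into 4 bins, 37 of the 49 in the top bin (127 to 546) were in the lists of both replicates. In the following bins 8, 1 and 0 of 48 were. A small number of members had a high signal in replicate 1 alone. A peak 11921 bp from the TSS of CG13323 had 308 there, one 32053 bp upstream of CG43245 had 167, and one 1525 bp upstream of chinmo had 118. None of the 3 had an overlapping peak in the ranked list of replicate 2 or in the series list.

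Intergenic members resembled intron peaks in signal and in presence in the lists of both replicates, and differed from promoter peaks in both. These measures are not independent of each other. All class comparisons used 2-sided Fisher's exact tests with p-values adjusted by the Benjamini-Hochberg method over 15 tests. Peaks are the units, so these p-values say nothing of the spread between embryos. The share in both replicates was 19.1% of 241 members, 22.7% of 444 intron peaks (Fisher's exact adjusted p = 0.329) and 42.3% of 558 promoter peaks (Fisher's exact adjusted p = 9.6e-10). Of the 193 members in the series list, 82 (42.5%) lay above the median signal of that list, against 51.9% of all merged peaks in that list. The share was 41.6% in introns (Fisher's exact adjusted p = 0.857) and 67.4% at promoters (Fisher's exact adjusted p = 1.4e-08).

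The excess of signal in one replicate was also smaller than at promoters. Of the 178 members in the conservative list, 119 (66.9%) were higher in the first replicate compared, against 76.7% of all merged peaks in that list. The share was 73.3% in introns (Fisher's exact adjusted p = 0.189) and 83.7% at promoters (Fisher's exact adjusted p = 1.5e-05). In the replicates' own ranked lists the median ratio of replicate 1 to replicate 2 was 1.18 for members, 1.23 for intron peaks and 1.32 for promoter peaks. The interquartile range of the members' ratios ran from 0.953 to 1.49, which holds all 3 medians.

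**Figure D2:**
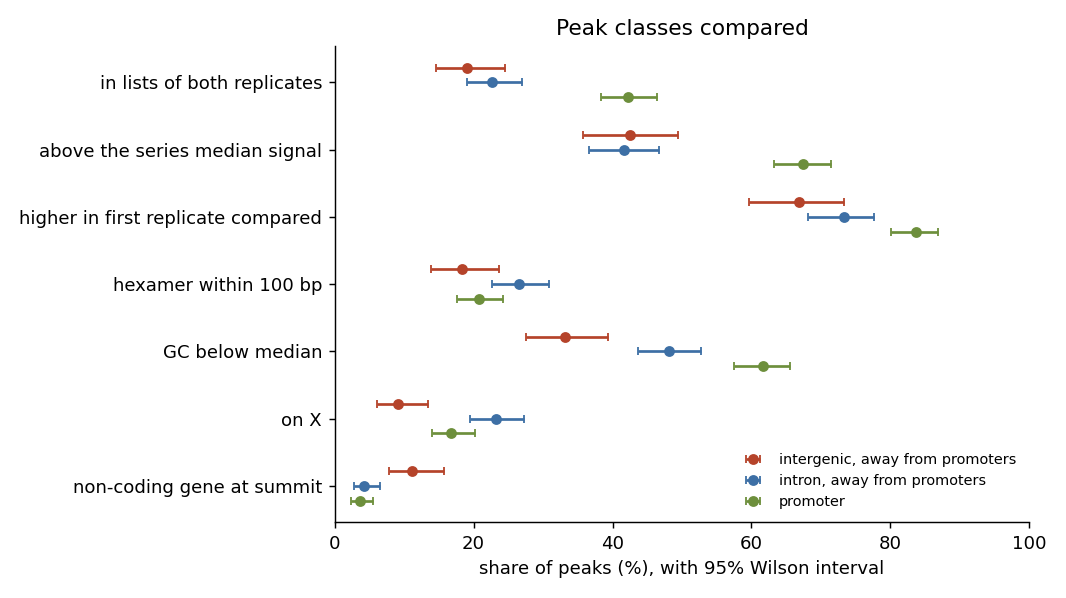
Share of peaks in percent (x axis) that meet each of 7 features (the hexamer is ACAGTG), for intergenic members (red), intron peaks (blue) and promoter peaks (green), with 95% Wilson intervals that cover counting error only. For GC below the median the 3 shares run from 33.2% to 61.6%, and for a non-coding gene at the summit the members are highest, at 11.2%.

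Members lay at all distances beyond the limit of 500 bp. The distance from the summit to the nearest TSS was 517 bp at the lowest, 5404 bp at the median and 426627 bp at the highest. Of the 241, 65 lay within 2000 bp and 83 (34.4%) beyond 10 kb. Upstream of the nearest TSS lay 154 (63.9%), among them all 30 members within 1000 bp, a zone in which the rule leaves little sequence on the downstream side. The members nearest to the limit were those of Sqor at 517 bp (series signal 125), Msr-110 at 521 bp (175) and CG10479 at 531 bp (159). Just inside it, and so not members, were peaks 485 bp from CG8854 (86.9), 468 bp from CG8665 (81.9) and 465 bp from CG6225 (91.3).

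The median series signal lay between 91.9 and 106 in every zone up to 50000 bp and was lower beyond it. It was 106 for members between 500 and 1000 bp from a TSS, 102 between 5000 and 10000 bp, 105 between 20000 and 50000 bp and 79.6 beyond that. The shares in both replicates were 23.3%, 27.3%, 15% and 0% in the same zones. In the zones between, the share was 8.57% (1000 to 2000 bp), 24.5% (2000 to 5000 bp) and 20.9% (10000 to 20000 bp). The farthest zone held 20 members, which had a median GC content of 50% against 40.8% for the other 221. A transposable element covered the summit of 5 of the 20 and of 5 of the 221. Among the 20 were 3 members near Myo81F with series signals of 73.5, 96.1 and 119, and a member within flam, a piRNA locus that represses transposons in the ovary. The flam peak (X, 21713442 to 21713791) had a signal of 25.3 in replicate 1 and 81.9 in replicate 2. The labels do not state how reads from repeated sequence were placed, and the part of repeats in these peaks was not tested.

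**Figure D3:**
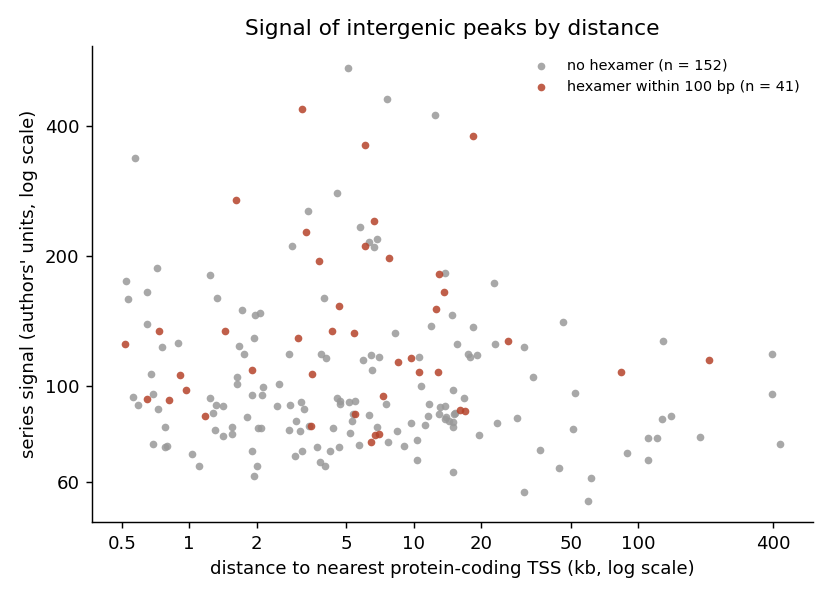
Series signal in the authors' units (y axis, log scale) against distance to the nearest protein-coding TSS in kb (x axis, log scale) for the 193 members in the series list. Red points are the 41 members with ACAGTG within 100 bp of the summit and grey points the 152 without; all members with a signal above 200 lie within 20 kb of a TSS.

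Several of the strongest members were grouped. Within 10 kb of another member lay 63 of the 241 (26.1%), in 27 groups. A neighbour of the same class within that distance was found for 19.8% of intron peaks and 18.3% of promoter peaks, a description with no test. The largest group had 6 members over 24772 bp in the stretch of 37098 bp free of protein-coding genes between RFeSP and chinmo. The gene chinmo encodes a BTB zinc-finger factor of temporal identity in neurons. Of the 6, 4 were in the lists of both replicates.

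The chinmo group had its highest signals in the middle. The site 12450 bp upstream of chinmo had a series signal of 424, with 246 in replicate 1 and 172 in replicate 2. The site 18434 bp upstream had a series signal of 380, with 234 and 153 in the replicates. Signals were lower on both sides of these. The site 7787 bp upstream had 126 and 71.3 in replicates 1 and 2, and the farthest, 26297 bp upstream, had 58.2 and 52.3. The site 1951 bp upstream had 55 and 54.3 and was in the thresholded list of replicate 1 but not of replicate 2. Replicate 1 was the higher at all 5 sites with a value in both, by little at the weak ones.

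**Figure D4:**
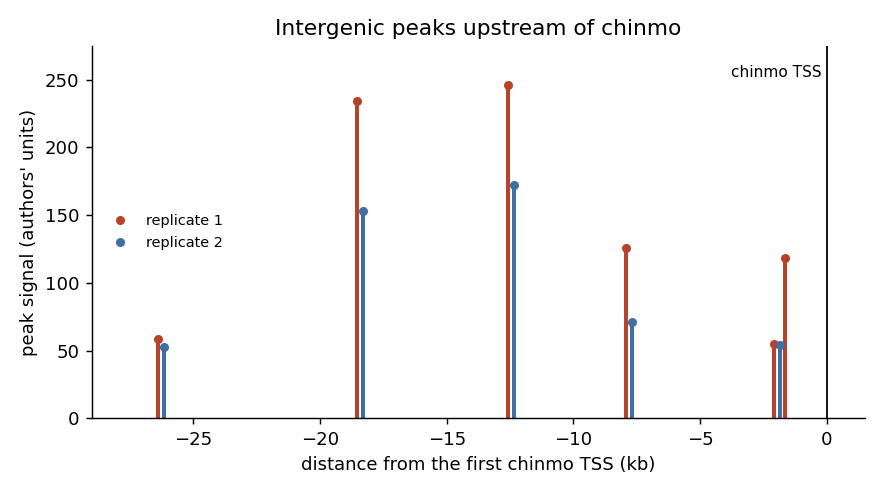
Peak signal in the authors' units (y axis) at the 6 intergenic members upstream of chinmo, against the distance from its first TSS in kb (x axis), in replicate 1 (red) and replicate 2 (blue, drawn slightly to the right). The members at 18434 and 12450 bp upstream reach 234 and 246 in replicate 1, and the member at 1525 bp has a peak in replicate 1 alone.

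A shorter group lay on X between CG4004 and Paics, which encodes an enzyme of purine synthesis. Its 3 members spanned 3120 bp, and all 3 were in the lists of both replicates. The first had the signals given above for the strongest member, 288 and 271. The second had 208 in replicate 1 and 163 in replicate 2, and the third 104 and 105. All 3 summits lay within long non-coding RNA genes, the first in lncRNA:Vinr and the others in lncRNA:CR44619. Smaller groups lay near RYBP (3 members, 1 in both replicates), CG7560 (3 members, 2 in both) and slbo (2 members, both of them in both replicates).

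Non-coding genes at the summit were more frequent among members than among intron peaks. Such a gene covered the summit of 27 members (11.2%), against 4.28% of intron peaks (Fisher's exact adjusted p = 0.00213) and 5.18% of all merged peaks. It was an RNA gene at 18 members and a transposable element at 10, with 1 member in both counts, against 17 and 2 of the 444 intron peaks. Members at RNA genes included the CG4004 group, both slbo sites (lncRNA:CR44810) and the farthest chinmo site (lncRNA:CR44603). Of the 18, 6 were in the lists of both replicates, and of the 10 at transposable elements, 2 were. The share of each class of sequence that non-coding genes cover was not measured, and intron peaks lie inside protein-coding genes by definition.

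Members were few on X. The X chromosome held 22 of the 241 (9.13%), against 23.2% of intron peaks (Fisher's exact adjusted p = 9.8e-06), 16.8% of promoter peaks (Fisher's exact adjusted p = 0.00647) and 17.2% of all merged peaks. X held 15.7% of the sequence that meets the position rule, and 15.5% of the 41566 ranked peaks that meet it and stayed below the threshold. There were 3.5 members per Mb of such sequence on X and 5.48 to 7.53 on the other large arms. Their median series signal was 114 on X and 88.8 to 107 on those arms. The difference from promoter peaks was not past the threshold with the list of replicate 1 alone (-6.29 percentage points, Fisher's exact adjusted p = 0.188) or of replicate 2 alone (-6.06 percentage points, Fisher's exact adjusted p = 0.386).

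Base composition set the classes apart as well. The median GC content within 100 bp of the summit was 41.8% for members, 37.3% for intron peaks and 34.8% for promoter peaks. Below the median of all merged peaks, 37.3%, were 80 of the 241 members (33.2%), against 48.9% of all merged peaks. The share was 48.2% in introns (Fisher's exact adjusted p = 0.000314) and 61.6% at promoters (Fisher's exact adjusted p = 2.0e-12). The difference from intron peaks was not past the threshold with the list of replicate 1 alone (-11 percentage points, Fisher's exact adjusted p = 0.12) or of replicate 2 alone (-11.7 percentage points, Fisher's exact adjusted p = 0.276). GC content also moved with signal. Its median was 37.3% and 37.1% in the upper bins of series signal, and 43.3% and 47.8% in the lower ones.

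The hexamer ACAGTG, which was frequent over the series as a whole, was the leading sequence of the members as well. It was found within 100 bp of 44 of the 241 summits (18.3%), on either strand, against 5.6% of 482 windows of equal length 1000 bp to the sides and 7.31% of the 41566 ranked peaks of the same class below the threshold. By the difference from the side windows, 12.7 percentage points, it ranked first of all hexamers, each counted with its reverse complement. By the difference from the peaks below the threshold, 10.9 points, it ranked seventh, behind hexamers rich in A and T and ACTGTA (16.6% against 5.31%). The mean GC content was 42.1% in members and in the side windows and 45.2% in the peaks below the threshold. These are descriptions with no test.

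The hexamer lay beside the summit more often than on it. Within 50 bp of member summits there were 15 sites, and between 50 and 100 bp there were 39. Per 100 bp of sequence and 100 peaks this was 6.22 and 16.2 sites, then 8.3 between 100 and 150 bp and 4.56 from there to 600 bp. Intron peaks had 9.23 and 24.8 sites in the first 2 zones, and promoter peaks 7.71 and 17.9. At the 54 member sites within 100 bp, read in the direction ACAGTG, the next base was G at 27, and the base before was T at 22 and C at 21.

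**Figure D5:**
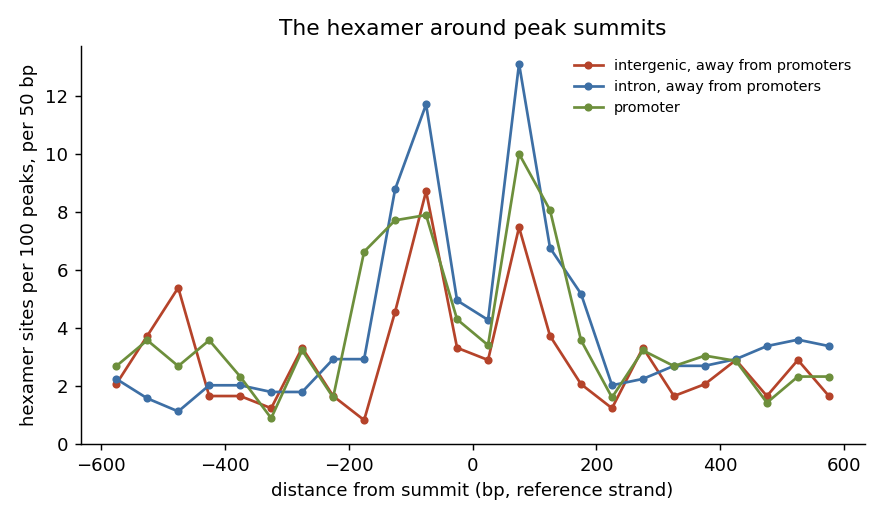
Number of ACAGTG sites on either strand per 100 peaks in bins of 50 bp (y axis) against distance from the peak summit in bp on the reference strand (x axis), for intergenic members (red), intron peaks (blue) and promoter peaks (green). In all 3 classes the counts are highest between 50 and 100 bp on either side and lower at the summit itself.

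Members with the hexamer had higher signals. Their series signal ran from 74.3 to 439 with a median of 116 over 41 members, and that of members without it from 54.4 to 546 with a median of 90.4 over 152, so the ranges overlapped. Above the median signal of the series list were 29 of the 41 (70.7%) and 53 of the 152 (34.9%; Fisher's exact adjusted p = 0.00016). In the lists of both replicates were 16 of 44 (36.4%) and 30 of 197 (15.2%; Fisher's exact adjusted p = 0.00426). Presence in both lists is not independent of signal, so this is no separate support. The share with the hexamer was 38.8%, 25%, 14.6% and 6.25% from the highest to the lowest of the 4 bins of signal. Members with it had a median GC content of 38.8%, against 42.8% without. Among members with GC below the median of all peaks, a split added after the data were seen, 82.4% of 17 with and 48.1% of 54 without lay above the median series signal (Fisher's exact p = 0.0231, unadjusted). Neither difference was past the threshold when members were limited to peaks with the highest IDR score, 1000 (12.5 percentage points for signal and 15.5 for both replicates), or to windows of 50 bp to each side (25.8 and 20.5).

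The hexamer was less frequent in members than in intron peaks, at 18.3% against 26.6% (Fisher's exact adjusted p = 0.0198). At promoters its share was 20.8% (Fisher's exact adjusted p = 0.474). Over all merged peaks it was 21.8%, so the members' share is close to the background. The difference from intron peaks did not hold with the list of either replicate alone, at -6.36 percentage points with replicate 1 (Fisher's exact adjusted p = 0.328) and 0.0352 with replicate 2 (Fisher's exact adjusted p = 1). In the panel of 20 motifs, adjusted over 40 tests, it also missed the threshold (Fisher's exact adjusted p = 0.0725).

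Known motifs set members apart mainly from promoter peaks. Of 20 motifs searched on both strands, 1 (5%) differed from intron peaks and 5 (25%) from promoter peaks, and all of these were less frequent in members. The TATA box, TATAAA, was in 22.4% of member windows and 38.4% of promoter windows (Fisher's exact adjusted p = 0.000389). The site CGATA of the boundary protein BEAF-32 was in 16.2% and 28% (Fisher's exact adjusted p = 0.0034), and the Mef2 site, known from muscle genes, in 6.64% and 15.8% (Fisher's exact adjusted p = 0.0034). The DNA replication-related element TATCGATA, which contains CGATA, was in 1 member (0.415%) and 4.12% of promoter peaks (Fisher's exact adjusted p = 0.0181). The forkhead site TAAACA was in 14.1% of members, 26% of promoter peaks (Fisher's exact adjusted p = 0.0034) and 24.3% of intron peaks (Fisher's exact adjusted p = 0.0124). In the side windows of members, TATAAA was in 20.5%, CGATA in 18%, the Mef2 site in 5.81%, TATCGATA in 0.207% and TAAACA in 17.2%. These side-window shares lie near those of the members themselves, with no test. Several of these motifs are rich in A and T, and the members' higher GC content, given above, moves with their shares, a part that was not tested. With the list of either replicate alone none of the 20 motifs differed, at 66 to 115 members.

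The only T-box sequence searched, GGTGTGA, was rare in members and in every set compared. It differed past the threshold from neither intron nor promoter peaks, and other forms of T-box sites were not searched. The T-box site GGTGTGA was found in 3 of 241 member windows (1.24%), against 2.49% of the side windows, 1.53% of peaks of the same class below the threshold, 2.03% of intron peaks and 1.43% of promoter peaks. None of 3 sites of factors that act with T-box proteins in the dorsal mesoderm differed past the threshold from intron peaks. The site TCAAGTG of Tinman, the homeodomain factor of the heart, was in 3.73% of members and 3.15% of intron peaks (Fisher's exact adjusted p = 0.923). The site GCCGNCG of Mad, the effector of Dpp signalling, was in 6.22% and 5.18% (Fisher's exact adjusted p = 0.923). The GATA site AGATAA, used by Pannier in heart and dorsal ectoderm, was in 8.71% and 13.1% (Fisher's exact adjusted p = 0.295). A match is a description of letters in the window, not of binding.

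The Dorsocross locus itself held members. Between the divergent genes Doc2 and Doc1 a site 6659 bp upstream of Doc2 (3L, 9025730 to 9026089) had a series signal of 210, with 136 in replicate 1 and 86.9 in replicate 2. It was in the lists of both replicates and its window is printed above. A weaker site, 9816 bp upstream of Doc1, was in the conservative list alone, with 36.9 and 49.8 in the replicates' ranked lists. Other members lay beyond the 3' ends of these genes. A site 425 bp past the end of Doc1 (3L, 9045246 to 9045641) had 74.2 and 81.4. One 750 bp past the end of Doc2 (3L, 9011761 to 9012110) had 66.3 and 11.9, so it rested mainly on replicate 1. The latter lies between Doc2 and CG5194, on the side of Doc3, and Doc3 itself flanked no member. A Dorsocross gene was thus a flanking gene of 4 members (1.66%), against 0.101% of the ranked peaks of the class below the threshold. Extra copies of this sequence in the transgene, if it carries any, and binding at the native locus cannot be told apart.

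Genes of the developmental lists were near a minority of members. The nearest gene belonged to 1 of 12 developmental lists (266 genes) for 28 of the 241 members (11.6%), against 6.93% of all merged peaks, 9.23% of intron peaks and 2.87% of promoter peaks. The 28 include 2 members nearest to Dorsocross genes and 5 nearest to chinmo. The T-box genes mid and H15, relatives of Tbx20 with roles in the heart, each had 1 member, with series signals of 86.6 and 63.3. T-box genes other than Dorsocross were nearest to 0.83% of members and 0.304% of all merged peaks. As flanking genes they stood beside 0.83% of members and 0.755% of ranked peaks of the class below the threshold. Of 21 heart and dorsal mesoderm genes, bin, a forkhead factor of the visceral mesoderm, and lbl, a homeobox gene of cardiac and muscle identity, had 1 member each. Genes of that list were nearest to 0.83% of members and 0.457% of all merged peaks. They flanked 0.83% of members and 0.943% of ranked peaks of the class below the threshold. The bin site had 41.1 in replicate 1 and 55.5 in replicate 2, and the lbl site 43.2 and 34.1. None of these 4 members was in the thresholded list of either replicate.

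Few members, and few of all merged peaks, lay nearest to genes of signalling pathways and pattern formation. Shares of members and of all merged peaks were 0.83% and 1.22% for the EGF receptor pathway and 0.83% and 0.381% for the Wnt pathway. For Notch and E(spl) genes they were 0.415% and 0.304%, and for Hox genes 0.415% and 0.152%. Segmentation genes had 0.83% and 0.228%, and forkhead factors 2.07% and 0.837%, with no test. As flanking genes, segmentation genes stood beside 1.66% of members and 1.91% of ranked peaks of the class below the threshold. These flanking shares were 1.24% and 1.18% for the EGF receptor pathway, 0.83% and 0.37% for Wnt, and 0.415% and 0.407% for Notch and E(spl). They were 0.83% and 0.433% for Hox genes and 2.07% and 0.662% for forkhead factors. None of the 16 amnioserosa and dorsal ectoderm genes and none of 21 Dpp pathway genes was nearest to a member, but few of all merged peaks had such a gene nearest (0.304% and 0.837%). Aop, the ETS repressor of EGF receptor signalling, had 2 members, with series signals of 80.7 and 77.4. Among Wnt ligands, Wnt6 had 1 at 92.9, and Wnt4 had 1 with 49 in replicate 1 alone. E(spl)malpha-BFM, a Notch target, had 1 at 84.7, and the Hox gene Dfd had 1 at 86.1. The forkhead genes of segmentation, slp2 and slp1, had 1 each, at 134 and 90.5. Of these, none was in the lists of both replicates.

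Other transcription factor genes had 12 members (4.98%, against 1.9% of all merged peaks), 5 of them nearest to chinmo. The rest were nearest to noc (138), vvl (127 and 105), Sox21a (107), ems (89.6 and 84.7) and bab2, where the numbers are series signals and the bab2 site had 37.1 and 37.8 in the ranked lists of the replicates. The zinc-finger gene noc, the POU gene vvl and the homeobox gene ems act in patterning of the embryo. The Sox21a site was in the lists of both replicates. Of 165 genes of ribosomal proteins, mRpS5 alone was nearest to a member (84.3), while 17 promoter peaks had such a gene nearest, and none of 48 proteasome genes was nearest to a member (0.0761% of all merged peaks).

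Listed genes were also found on the far side of the stretch free of protein-coding genes, where another gene was nearer to the summit. This count was added after the members had been seen. A listed gene flanked 46 members (19.1%, including those with a listed gene nearest), against 13% of the ranked peaks of the class below the threshold. Of the 46, 6 lay in the group between RFeSP and chinmo and 4 were flanked by a Dorsocross gene, and the difference was not tested. Among the flanked members with an unlisted gene nearest, the highest signal was at the site 572 bp upstream of sp3. This site had a series signal of 337, with 192 in replicate 1 and 152 in replicate 2. Its other flanking gene, 7542 bp away, was C15, a homeobox gene known from the amnioserosa. A site between CG12684 and peb (pebbled, also called hindsight), a zinc-finger gene of the amnioserosa, had 91 and 43.6 in the replicates and lay 27360 bp from peb. It was not in the lists of both replicates. The amnioserosa and dorsal ectoderm list holds peb, while C15 was counted with the other transcription factor genes. Genes of that amnioserosa list flanked 0.415% of members, against 0.568% of the ranked peaks of the class below the threshold. A site near Glut3 had 68.8 and 52.4, was in the lists of both replicates and was flanked by the Hox gene abd-A at 8302 bp. Distance to a flanking gene does not show which gene, if any, a site acts on.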

How the data were processed

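Doc2-eGFP ChIP-seq of whole embryos (0 to 18 h) was available as peak lists of 2 biological replicates on dm6, with chromatin sonicated to between 200 and 800 bp, per the labels. The signal of a peak was used as deposited, to describe and rank peaks, and its scale is not stated. The deposited score scales the IDR and was at least 830 in the thresholded lists. The series and conservative lists held 1140 and 1065 peaks on the main chromosomes, and those of replicates 1 and 2 held 777 and 468. Reads of the control were not used here. The labels name neither aligner nor peak caller (not given in the sources used here). Depth is unknown, and the intervals cover counting error only.

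Overlapping peaks of the 4 thresholded lists were merged, keeping the summit of the row with the highest signal, which favours the lists with higher signals. Classes followed the 13945 protein-coding genes of Ensembl release 115. A member was in a list if it overlapped a peak there by 1 bp. Values per replicate come from the replicates' own ranked lists. The conservative list gives the signal of each replicate compared without naming it, so "first replicate compared" is used there. Motifs were searched on both strands in windows of 201 bp. Fisher's exact tests compared members with intron and promoter peaks, adjusted by the Benjamini-Hochberg method over 15 tests, or over 40 for the motif panel. The motif panel was tested on simulated windows with the same base composition in all classes, so the effect of differing composition was not covered. The text names the genes nearest to the 20 members of highest series signal found in both replicates, and list members; others were named after their values were seen. Members, lists and tests were chosen with earlier results of these data known, so the frequency of ACAGTG is no independent support. Alternatives were other lists, each replicate alone, a score of 1000, other distances, windows and gene types. Tables were made in Python 3.11.15 with pandas 2.3.3 and numpy 2.4.6, tests in scipy 1.17.1 and plots in matplotlib 3.10.9.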

Additional observations from a re-analysis of the deposited data

How the results depend on the processing

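Differences here are members minus the other class, in percentage points. Of 149 alternatives, 105 kept the direction and the side of the threshold, or a count within 1.5 times. Some of the 105 could not change and say nothing of stability. These were the number of members under the other overlap, the class shares of series signal with the series list alone, and those of the replicate compared with the conservative list alone. The number of members was 66 to 115 with the list of 1 replicate alone and 131 with a score of 1000. For the share with ACAGTG against intron peaks, the difference was -6.36 to 0.0352 with 1 replicate alone, -5.63 with the series list, -4.23 with the conservative list, -4.64 with a score of 1000, -4.27 with a limit of 2000 bp, -6.74 with genes of every type and -2.71 with 50 bp windows, none past the threshold. Against promoter peaks it turned to 3.68 to 7.79 with 1 replicate alone, 0.825 with the conservative list, 4.02 with a score of 1000 and 0.096 with genes of every type. It passed the threshold at -8.88 with windows of 250 bp to each side (Fisher's exact adjusted p = 0.0227). The difference in low GC against intron peaks missed the threshold at -11.7 to -11 with 1 replicate alone, -9.71 with a score of 1000 and -7.67 with 250 bp windows. The difference on X against promoter peaks missed it at -6.29 to -6.06 with 1 replicate alone, -6.8 with the conservative list and -4.1 with a score of 1000. Within members, the difference with ACAGTG missed it for signal above the median at 12.5 with a score of 1000 and 25.8 with 50 bp windows, and for both replicates at 15.5 and 20.5. Motifs that differed from intron peaks numbered 2 with the series list, and 0 with 1 replicate alone, a score of 1000, a limit of 2000 bp or 50 bp windows. Those that differed from promoter peaks numbered 0 with 1 replicate alone or a score of 1000, and 3 with the limit of 2000 bp and with 50 bp windows. Differences that were never past the threshold changed sign for both replicates against introns (3.91 at 2000 bp) and for signal above the median against introns (-1.41 with the conservative list, -5.46 with a score of 1000 and -1.79 with genes of every type). The causes of these changes were not tested, beyond the smaller number of peaks in the shorter lists. Shares in both replicates, of series signal and of the replicate compared have no value with 1 replicate alone, and the test of non-coding genes has none with genes of every type, which leaves no such member. No paired analysis was possible because the series has 1 group of 2 replicates. Unknown depth limits all counts of shared peaks: a peak missing from a list is not shown to be absent.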

Other observations

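Further members that were in the lists of both replicates lay near genes not described above. A site 718 bp upstream of RasGAP1, which encodes a negative regulator of Ras, had a signal of 87 in replicate 1 and 96.3 in replicate 2. A site 1944 bp upstream of Atf3, a bZIP transcription factor gene, had 64.3 and 65.2. A site 12556 bp upstream of tal-1A, part of a gene of small peptides with roles in leg and epidermal patterning, had 99.5 and 52.9. The gene ph-d, of the Polycomb group, had a site 735 bp upstream with 91.1 and 47.4 that was not in the lists of both.

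In all, 202 genes were nearest to a member, and 29 of them to more than 1. After chinmo with 5, genes with 3 members each were RYBP, CG7560, Myo81F, CG43245, CG6163, Tim23 and Marf1. Of these, RYBP, CG7560 and CG43245 had at least 1 member in the lists of both replicates.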
